A study of Homo sapiens with 18 samples.

Results

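Genes for the cellular receptors of phorbol ester, and 1 related gene, were followed over time in Raji cells. The 10 genes, out of 18417 measured, were taken by symbol: the RAS guanyl-releasing genes RASGRP1, RASGRP2 and RASGRP3, the protein kinase C genes PRKCA, PRKCB, PRKCD, PRKCE, PRKCH and PRKCQ, and PRKCZ, an isoform that does not bind phorbol ester. Each had exactly 1 probe set that the platform table assigns to that gene alone. Raji cells are B cells of an established human line, derived from a Burkitt lymphoma and carrying Epstein-Barr virus. The 18 arrays form 6 groups of 3, which the labels call biological replicates, harvested 0, 4, 8, 12, 24 and 48 h into the treatment. Every group, that of 0 h included, carries the same agents in the labels: the inducers phorbol ester (0.05 µM) and sodium n-butyrate (3 mM), together with maslinic acid (19 µM). Butyrate inhibits histone deacetylases, and maslinic acid is a plant triterpene. Arms without 1 of the agents, and untreated arrays at later times, were not analysed here, so that the agents and the time in culture cannot be told apart. Array medians lay between 4.03 and 4.25 on the log2 scale, and the number of arrays limits the precision.

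Diacylglycerol is a membrane lipid that phospholipase C releases when receptors such as the B cell receptor are engaged, and phorbol esters take its place on a cysteine-rich, zinc-binding domain. RASGRP proteins use this domain to reach the membrane, where they load RAS or RAP with GTP. The conventional protein kinase C isoforms (PRKCA, PRKCB) respond to calcium and diacylglycerol, and a second class (PRKCD, PRKCE, PRKCH, PRKCQ) responds to diacylglycerol alone. In B cells the beta isoform passes the signal of the B cell receptor to NF-kappaB, and PKC phosphorylates RASGRP3. Prolonged phorbol ester is known to deplete the proteins of responsive isoforms, but the arrays measured mRNA only.

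All 3 RASGRP genes fell: RASGRP3 was 7.62-fold lower at 12 h than at 0 h, RASGRP1 was 3.20-fold lower at 48 h, and RASGRP2 was 1.72-fold lower at 24 h. Of the 7 protein kinase C genes, PRKCB and PRKCH rose at 24 h, 1.82-fold and 1.65-fold. The other 5 were not called at any time. Under 14 alternative settings of the analysis, the 24 h call of PRKCH was lost in 7 and that of RASGRP2 in 2. A gene counts as called where limma's moderated test gives an adjusted p under 0.05 after Benjamini-Hochberg adjustment over all genes, and all differences below are on the log2 scale of the deposited intensities, later time minus earlier time.

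Sequence just upstream of 3 of these genes is shown because they held their calls under every alternative tried for at least 1 time against 0 h. Each is the 250 bases before an annotated RefSeq start in GRCh38.p14, 5′ to 3′ in the gene's direction. For PRKCB (chr16:23835733-23835982, plus strand) the capitals mark the octamer. For RASGRP3 (chr2:33436098-33436347, plus strand), the first of 4 annotated starts, they mark a match to TATAAA on the other strand. For RASGRP1 (chr15:38564815-38565064, minus strand) none of the searched motifs was present. Which starts Raji cells use was not measured.
PRKCB: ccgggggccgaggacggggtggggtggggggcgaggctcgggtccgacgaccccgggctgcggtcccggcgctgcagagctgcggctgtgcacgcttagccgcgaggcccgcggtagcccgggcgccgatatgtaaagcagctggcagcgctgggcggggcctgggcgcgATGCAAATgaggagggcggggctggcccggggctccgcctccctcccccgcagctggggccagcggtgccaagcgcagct
RASGRP3: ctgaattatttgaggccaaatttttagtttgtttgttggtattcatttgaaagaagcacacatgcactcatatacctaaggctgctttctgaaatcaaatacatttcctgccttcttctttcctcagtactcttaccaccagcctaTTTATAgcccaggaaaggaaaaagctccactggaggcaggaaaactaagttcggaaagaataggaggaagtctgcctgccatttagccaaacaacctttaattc
RASGRP1: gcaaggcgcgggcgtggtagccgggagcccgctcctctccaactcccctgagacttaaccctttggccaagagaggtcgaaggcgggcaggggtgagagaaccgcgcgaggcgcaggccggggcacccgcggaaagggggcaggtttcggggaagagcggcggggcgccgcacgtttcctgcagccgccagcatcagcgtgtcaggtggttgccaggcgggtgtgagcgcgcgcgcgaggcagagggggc

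A set of 7 motifs was searched on both strands in the 18 such windows of the 10 genes. They were kept from a larger set whose matches had been seen, so the choice is a description only. The AP-1 motif TGANTCA, which is also the classical phorbol ester response element, was in 0 of 18 windows, against 6.573% of all 35116 windows. No match says only that these letters are not in these windows. The octamer ATTTGCAT, which POU-family factors of B cells bind, was in 1 window, that of PRKCB, where it begins 80 bases before the start on the other strand and overlaps no other motif searched, against 1.632% of all windows. GC boxes (GGGCGG) were in 11 of 18 windows and 8 of the 10 genes, against 42.639% of all windows. TATAAA was in 3 of 18 windows, of RASGRP3 and PRKCQ, against 10.716% of all windows. The RASGRP3 matches are all on the other strand, 48 to 194 bases before a start, and that of PRKCQ begins 227 bases before its start. CCGGAAG was found upstream of RASGRP2 and PRKCH (8.517% of all windows), and the cyclic AMP response element TGACGTCA of PRKCZ (1.646%). The E-box CACGTG was in 0 windows (6.345% of all). Upstream GC content was 77.2% for PRKCB and 71.6% for RASGRP1, against 39.6% at the first RASGRP3 start, with a median of 58.0% over all windows.

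RASGRP3 encodes a RAS and RAP activator that acts downstream of the B cell receptor. Its levels on the 3 arrays of each time were 9.38, 9.15 and 9.46 at 0 h, 8.78, 8.84 and 8.88 at 4 h, 7.43, 7.13 and 7.77 at 8 h, 6.24, 6.90 and 6.05 at 12 h, 7.06, 7.13 and 7.33 at 24 h, and 7.54, 7.54 and 8.74 at 48 h. All arrays of 0 h lay above all arrays of every later time, and those of 12 h were below all others. At 4 h the difference from 0 h was not called (-0.49, SE 0.27, adjusted p = 0.479). It was -1.88 at 8 h (SE 0.27, adjusted p = 0.000354), -2.93 at 12 h (adjusted p = 3.68e-06), -2.15 at 24 h (adjusted p = 3.62e-05) and -1.39 at 48 h (adjusted p = 0.00157). By its F test over all times RASGRP3 ranked 150 of the 18417 genes (adjusted p = 3.92e-06).

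RASGRP3 was also the 1 gene of the 10 with a call between neighbouring times, at 8 h against 4 h (-1.39, SE 0.27, adjusted p = 0.0429), a comparison in which 0.223% of all genes were called. That call ended when any 1 of replicates 1, 2 and 3 of 4 h or replicates 1 and 2 of 8 h was left out (adjusted p between 0.0987 and 0.171), and in the fit of the 6 arrays compared (adjusted p = 0.109). After 12 h the level rose again, while all arrays stayed below those of 0 h. RASGRP3 averaged 7.94 ± 0.69 at 48 h and 6.40 ± 0.45 at 12 h (SD, n = 3 each), a difference of 1.54 or 2.92-fold (SE 0.27, limma adjusted p = 0.00177), in a comparison chosen after the values had been seen. There 4.74% of all genes were called, and the other 9 genes were not. The highest array of 48 h, at 8.74, was replicate 3, and leaving it out gave a difference of 1.15 (adjusted p = 0.00408).

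RASGRP1, a RAS activator of T and B lymphocytes, had levels of 7.72, 7.63 and 8.28 at 0 h, 7.13, 7.27 and 7.04 at 4 h, 6.97, 6.16 and 6.85 at 8 h, 6.29, 6.52 and 6.79 at 12 h, 6.51, 6.84 and 6.69 at 24 h, and 5.54, 6.70 and 6.35 at 48 h. Every later array lay below the 3 arrays of 0 h, and the groups of 8 h to 48 h overlapped each other. The difference from 0 h was -0.73 at 4 h (SE 0.26, adjusted p = 0.216, not called), -1.21 at 8 h (adjusted p = 0.00852), -1.34 at 12 h (adjusted p = 0.00337), -1.20 at 24 h (adjusted p = 0.00509) and -1.68 at 48 h (adjusted p = 0.000216). No return after 12 h was called: at 48 h against 12 h RASGRP1 differed by -0.33 (95% confidence interval -0.89 to 0.22, adjusted p = 0.698). Whether the 2 genes differ in this was not tested.

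RASGRP2 encodes an exchange factor chiefly for RAP, best known in platelets, whose domain binds diacylglycerol only weakly. Its levels were 4.93, 5.35 and 4.73 at 0 h, 4.48, 4.78 and 4.91 at 4 h, 4.13, 4.05 and 4.63 at 8 h, 4.53, 4.62 and 4.08 at 12 h, 4.18, 4.31 and 4.16 at 24 h, and 4.48, 4.17 and 4.62 at 48 h. All arrays of 8 h and later lay below those of 0 h. It was lower than at 0 h by a called difference at 8 h (-0.73, SE 0.20, adjusted p = 0.0363) and 24 h (-0.79, adjusted p = 0.0145). At 12 h and 48 h it differed by -0.59 and -0.58 without a call (adjusted p = 0.0865 and 0.0657), and it missed the F test (adjusted p = 0.0545). Leaving out 0 h replicate 2 ended the 24 h call (-0.61, adjusted p = 0.0924), as did leaving out 24 h replicate 1 (adjusted p = 0.0517). The 8 h call ended when replicate 1 or 2 of 0 h, or replicate 1 or 2 of 8 h, was left out, and in the fit of the 6 arrays compared (adjusted p between 0.0693 and 0.187).

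**Figure D1:**
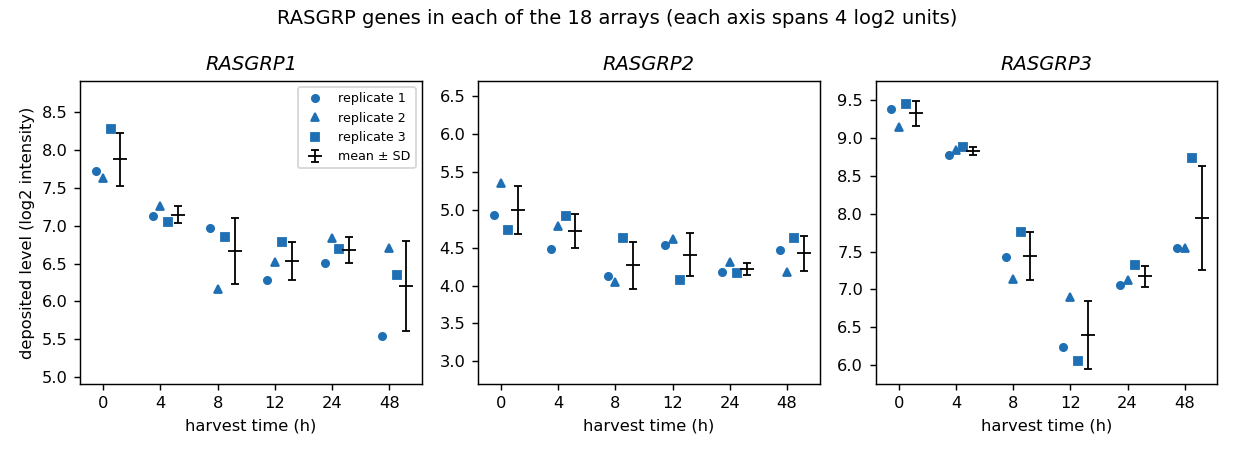
Deposited log2 intensity of the 3 RASGRP genes against harvest time in h, with 1 symbol per array (shape gives the replicate) and bars for mean ± SD (n = 3). RASGRP3 is lowest at 12 h, at 6.05 to 6.90, and 7.54 or higher at 48 h, while RASGRP1 shows no such return.

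Among the conventional isoforms, PRKCB, the main protein kinase C of B cells, had levels of 8.43, 8.48 and 8.30 at 0 h, 8.20, 8.04 and 8.13 at 4 h, 8.55, 8.11 and 8.27 at 8 h, 8.61, 8.74 and 8.89 at 12 h, 9.29, 9.18 and 9.32 at 24 h, and 8.30, 8.74 and 9.16 at 48 h. The arrays of 24 h lay above all others, and those of 48 h were spread out, with replicate 1 at the 0 h level. PRKCB averaged 9.26 ± 0.07 at 24 h and 8.40 ± 0.09 at 0 h (SD, n = 3 each), a difference of 0.86 (SE 0.18, adjusted p = 0.00318). At 48 h the difference from 0 h was 0.33 (adjusted p = 0.258), and it was 0.55 and called without replicate 1 of 48 h (adjusted p = 0.0432). Its F test gave an adjusted p of 0.00181.

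PRKCA, the broadly expressed conventional isoform, had 5.93, 5.94 and 4.75 at 24 h, against 4.88, 4.88 and 5.23 at 0 h. The first 2 replicates of 24 h were the highest of all 18 arrays, while replicate 3 was below every array of 0 h. The difference of 0.54 (SE 0.29) was not called (adjusted p = 0.287). It was 0.93 and called without replicate 3 of 24 h (adjusted p = 0.0206), and 0.85 with array weights (adjusted p = 0.0129), which give that array 0.402 against 1.33 and 2.87 for its companions. At the other 4 times PRKCA differed from 0 h by 0.07 to 0.40.

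In the class that responds to diacylglycerol without calcium, PRKCH, the eta isoform, prominent in epithelial cells, had levels of 3.36, 3.44 and 3.54 at 0 h, 3.45, 3.16 and 3.07 at 4 h, 3.53, 3.43 and 3.22 at 8 h, 3.34, 3.40 and 3.28 at 12 h, 4.45, 3.94 and 4.12 at 24 h, and 3.38, 4.55 and 3.76 at 48 h. All arrays of 24 h were above all arrays of 0 h to 12 h, and the 48 h arrays overlapped both. The probe set lay low on the scale, with earlier group means of 3.23 to 3.45 against mean lower quartiles of 3.01 to 3.06 for the same arrays, so that a change can be understated. PRKCH averaged 4.17 ± 0.26 at 24 h and 3.45 ± 0.09 at 0 h (SD, n = 3 each), a difference of 0.73 (SE 0.22, adjusted p = 0.0400). The call was lost in 7 of 14 alternatives, with adjusted p up to 0.184: under quantile normalization, with arrays centred on their median, and without replicate 1, 2 or 3 of 0 h or replicate 1 or 3 of 24 h. Its F test gave an adjusted p of 0.0255, and 0.0987, 0.0561 and 0.0515 without replicate 1 of 24 h, replicate 3 of 24 h or replicate 2 of 4 h.

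PRKCQ, the theta isoform of T cells, ranged between 3.45 and 4.23. At 48 h it had 4.04, 4.23 and 4.11, against 3.87, 3.86 and 3.84 at 0 h, groups that did not overlap. The difference of 0.28 (SE 0.15, adjusted p = 0.275) was not called. PRKCE, the epsilon isoform, ranged between 4.16 and 5.36 and was below its 0 h mean at all 5 later times, by -0.06 to -0.54. The largest of these, at 8 h, had an unadjusted p of 0.0472 and an adjusted p of 0.274. PRKCE was at 4.16 on replicate 3 of 24 h, against 5.23 and 5.06 on the other 2.

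PRKCD, the delta isoform, which limits B cell activation and takes part in apoptosis, differed from 0 h by -0.03 to 0.29. At 24 h its 95% confidence interval was -0.33 to 0.91, so changes of that size cannot be told from none with these arrays. PRKCZ, an atypical isoform that needs neither calcium nor diacylglycerol, served as the comparison that phorbol ester does not bind. Its levels were 5.84, 5.69 and 5.44 at 24 h, against 4.88, 5.38 and 5.39 at 0 h, all above those of 0 h. The difference of 0.44 (SE 0.32, 95% confidence interval -0.24 to 1.12) was not called (adjusted p = 0.493), and at the other times PRKCZ differed by -0.19 to 0.30.

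**Figure D2:**
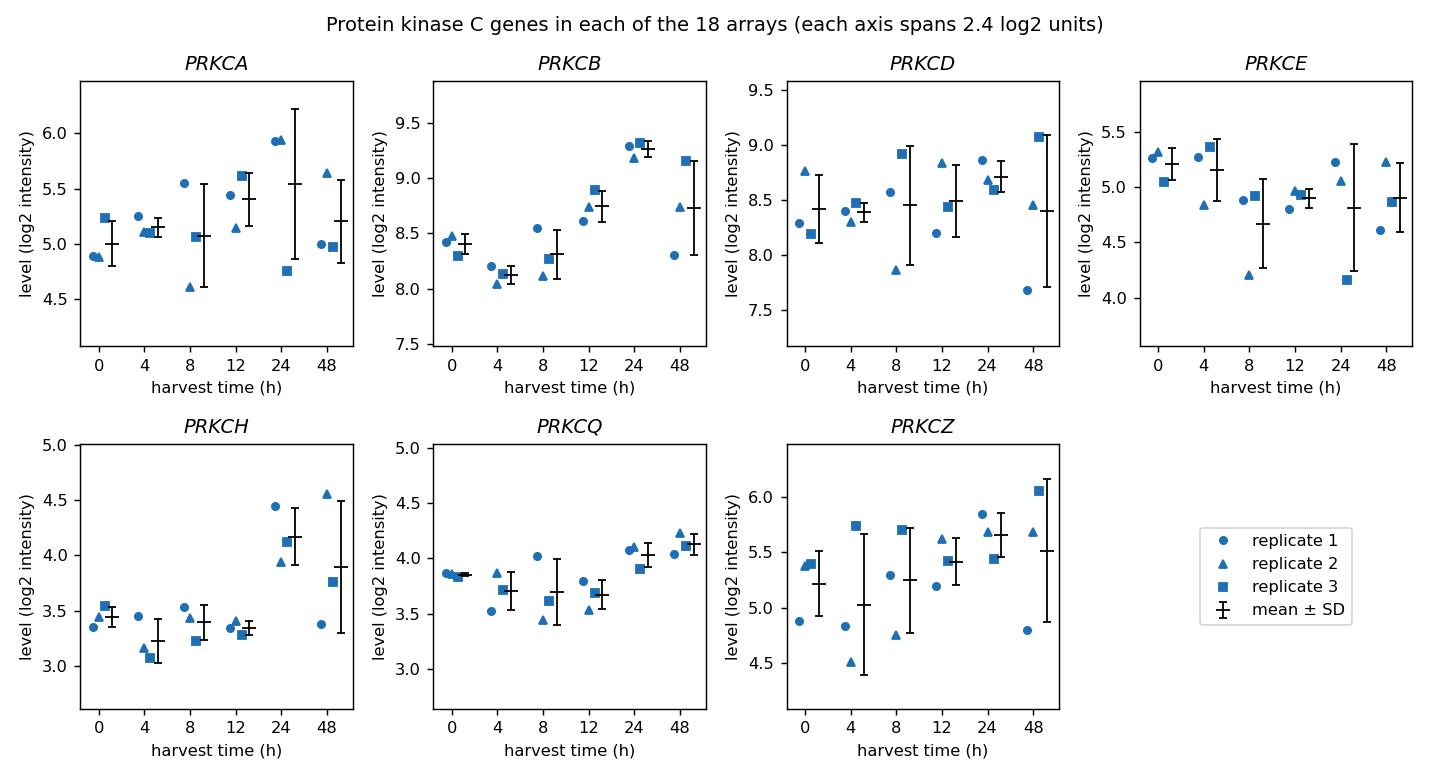
Deposited log2 intensity of the 7 protein kinase C genes against harvest time in h, with 1 symbol per array and bars for mean ± SD (n = 3), each axis spanning 2.4 log2 units around its own gene. The 3 arrays of 24 h lie above all other arrays for PRKCB (9.18 to 9.32) and above all arrays of 0 h to 12 h for PRKCH (3.94 to 4.45), and replicate 3 of 24 h lies apart for PRKCA (4.75) and PRKCE (4.16).

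By time, 0 of the 10 genes were called at 4 h with limma (1 at an unadjusted p under 0.05), where 1.75% of all genes were. At 8 h 3 were called, all RASGRP genes and all lower, against 6.68% of all genes (3.18% lower). At 12 h 2 were called, RASGRP1 and RASGRP3, both lower, against 8.05% (4.14% lower). At 24 h 5 were called, 3 RASGRP genes lower and PRKCB and PRKCH higher, against 12.5%, and this number was 3 when 0 h replicate 2 or 24 h replicate 1 was left out. The share of all genes called lower was 5.74% and called higher 6.74%. At 48 h 2 were called, RASGRP1 and RASGRP3, both lower, against 15% (8.11% lower), and 4 with 48 h replicate 1 left out, PRKCB and PRKCH being added. After median centring of the arrays, the share of higher genes among all called was 30.6%, 42.9% and 30.5% at 12, 24 and 48 h, against 48.6%, 54% and 46.1% as deposited. The F test called 4 of 10, RASGRP1, RASGRP3, PRKCB and PRKCH, against 16.4% of all genes. The median difference of the 10 genes was -0.20, -0.12, -0.14, 0.24 and 0.09 at 4, 8, 12, 24 and 48 h, against 0.03, -0.02, 0.05, -0.01 and 0.05 over all genes. These 5 comparisons share the arrays of 0 h, and the 10 genes were chosen with earlier results of these data known.

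**Figure D3:**
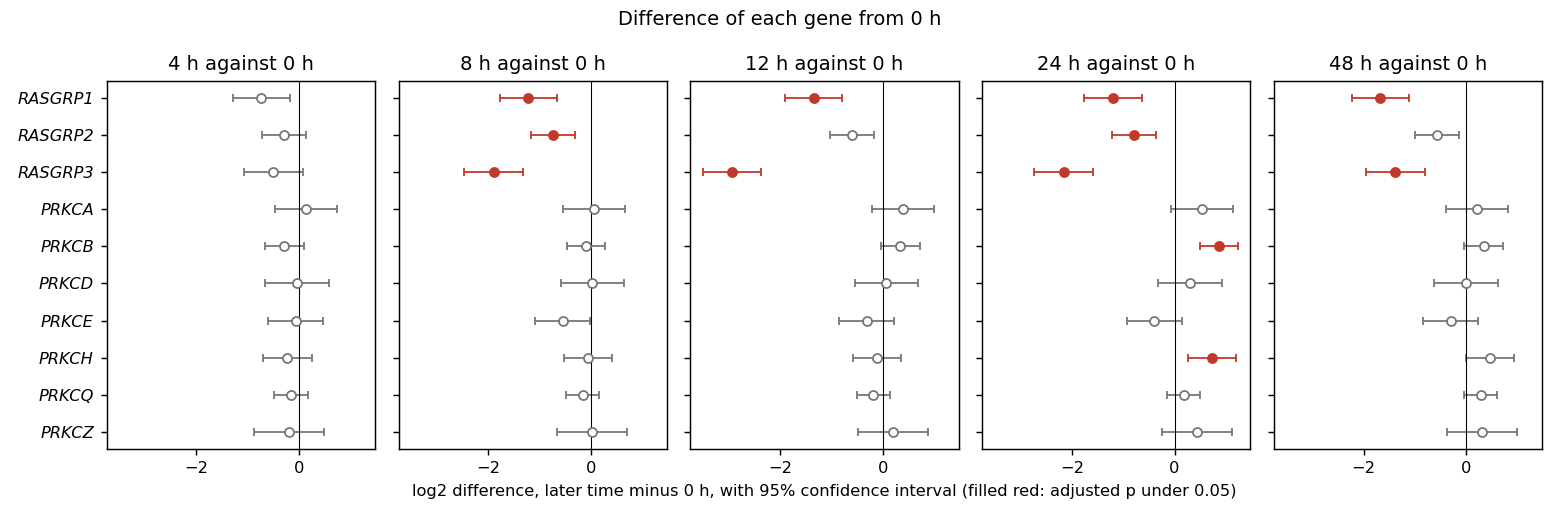
Log2 difference of each of the 10 genes from 0 h (later time minus 0 h) with its 95% confidence interval, 1 panel per time, filled red where the adjusted p was under 0.05. The called falls belong to RASGRP1, RASGRP2 and RASGRP3 and reach -2.93 at 12 h. The 2 called rises, 0.86 and 0.73, are those of PRKCB and PRKCH at 24 h.

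Between the remaining neighbouring times limma called 0 of the 10 genes. At 12 h against 8 h 0% of all genes were called, and 2 of the 10 had an unadjusted p under 0.05, RASGRP3 (-1.05) and PRKCB (0.43). At 24 h against 12 h, where 1.37% of all genes were called, 4 had an unadjusted p under 0.05: RASGRP3 (0.78), PRKCB (0.52), PRKCH (0.83) and PRKCQ (0.36). At 48 h against 24 h, where 0.402% were called, RASGRP3 (0.77) and PRKCB (-0.53) did. With array weights RASGRP3 was called at 12 h against 8 h, and RASGRP3, PRKCB and PRKCH at 24 h against 12 h. Replicates 1, 2 and 3 of 8 h had weights of 5.18, 0.246 and 0.827. The weighted 8 h mean therefore rests mostly on replicate 1.

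Some arrays were the lowest of their time for many of the 10 genes. Replicate 2 of 8 h had the narrowest interquartile range (2.37, against 2.74 to 3.16 on the others) and was the lowest of its time for 9 of the 10 genes. Replicate 1 of 48 h was the lowest of its time for 8 of the 10, and replicate 3 of 24 h for 6. For RASGRP3 at 48 h that place is a near tie (7.542 against 7.544 on replicate 2). Replicate 3 of 0 h and replicate 1 of 12 h were lowest for 5 each. The share of all genes lowest on these arrays was not counted. The calls of RASGRP1 and RASGRP3 against 0 h from 8 h on and that of PRKCB at 24 h held when any 1 of the arrays compared was left out.

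B cell markers were read beside the RASGRP genes. The 5 measured of 8 markers (MS4A1, CD79A, CD79B, PAX5 and CD22) had summed linear intensities of 1537 to 2060 at 0 h, 1492 to 1617 at 4 h, 948.0 to 1246 at 8 h, 687.5 to 841.4 at 12 h, 695.5 to 1197 at 24 h and 993.7 to 1761 at 48 h. MS4A1 alone made up 43.3% to 75.1% of the sum on an array, so the sum follows that gene most. At 12 h MS4A1, which encodes CD20, fell by 1.26 (adjusted p = 0.0105), PAX5, the B cell identity factor, by 1.34 (adjusted p = 0.0102), and CD22, an inhibitory receptor, by 1.29 (adjusted p = 0.0344). CD79A, a signalling chain of the B cell receptor, had its lowest mean at 48 h, where it fell by 1.77 (adjusted p = 0.0115), and its partner CD79B was not called at any time. None of the 5 was near background, meaning a group mean under the lower quartile of its arrays, at any time. The part of this shift in the RASGRP results was not tested. All arrays are of the Raji line, where fewer cells that express a gene and less RNA per cell cannot be told apart. T cell markers, relevant to PRKCQ and RASGRP1, summed to 116.9 to 140.6 at 0 h and 82.08 to 121.1 at later times over 8 of 8 genes, with CD3E near background at 0 h and CD3G at 4 and 8 h. Within that list TRAT1, an adaptor of the T cell receptor, was called lower at 8, 12, 24 and 48 h (-1.74, -1.81, -1.90 and -2.22), and CD3D, a chain of that receptor complex, rose by 1.57 at 24 h (adjusted p = 0.00297). The 8 monocyte markers summed to 85.4 to 111.4 over all times. S100A8 was near background throughout, and CD163 and VCAN at 0, 4, 8 and 12 h.

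Other genes of the diacylglycerol and RAS pathway were read from 10 lists, with 80 of 94 genes measured. The lists were chosen with earlier results of these data known, so their counts are a description only. Of the 80, 2 rose and 0 fell at 4 h, where 1.16% of all genes were called higher and 0.586% lower. At 8 h 6 rose and 0 fell, against 3.5% higher and 3.18% lower over all genes, and at 12 h 6 rose and 1 fell, against 3.91% and 4.14%. At 24 h 11 rose and 0 fell, against 6.74% and 5.74%, and at 48 h again 11 rose and 0 fell, against 6.92% and 8.11%. The F test called 14 of the 80, where it called 16.4% of all genes. The median difference was 0.07 at 24 h and 0.11 at 48 h, against -0.01 and 0.05 over all genes.

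Among other diacylglycerol-binding proteins and remaining PKC genes, 2 of 10 passed the F test: PRKD2, a protein kinase D that PKC phosphorylates, which rose at 24 h (1.56, SE 0.35, adjusted p = 0.0051), and the RAC-regulating chimaerin CHN1, with 0.60 at 24 h (adjusted p = 0.0632). CHN1 was near background at 0, 4 and 8 h, so its differences can be understated. Of 9 diacylglycerol kinases, which convert the lipid to phosphatidic acid and so end its signal, DGKA alone passed, with a rise of 1.28 at 24 h (adjusted p = 0.00734). Of 9 phospholipase C genes, PLCD3 and PLCB3 passed, with rises of 0.98 and 0.77 at 24 h. The 1 gene of the 80 that fell at 12 h was PLCG2, the isoform that acts behind the B cell receptor (-0.99, SE 0.29, adjusted p = 0.0424). It missed the F test and is named here because of that call, after its values were seen. Also called without passing the F test were CDC37, higher at 24 h (1.18, adjusted p = 0.0152), and DGKG, higher at 48 h (0.43, adjusted p = 0.0471).

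Downstream, 0 of 9 RAS and RAP GTPase genes passed the F test. The scaffold KSR1, which holds RAF, MEK and ERK together, was the 1 of 5 in its list, with a rise of 1.02 at 24 h (adjusted p = 0.00269). Of 6 other exchange factors, RAPGEF2, which acts on RAP, and SOS1, which acts on RAS, passed. RAPGEF2 rose at all 5 times, by 1.15 at 4 h (adjusted p = 0.0124) and 0.76 at 48 h. SOS1 rose by 0.66 at 4 h (adjusted p = 0.0213).

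Among 6 measured RAS GTPase activating proteins, which return RAS and RAP to the inactive state, RASA3 and NF1 passed. RASA3 averaged 7.01 ± 0.74 at 24 h and 4.15 ± 0.01 at 0 h (SD, n = 3 each), a 7.25-fold rise (2.86, SE 0.43, adjusted p = 0.000181). It had risen by 1.97 at 8 h and 2.44 at 12 h, the times at which RASGRP3 was lower by 1.88 and 2.93. At 48 h RASA3 was still higher by 2.44, with arrays from 5.50 to 7.59. A link between the 2 genes was not tested. NF1, neurofibromin, rose by 0.77 at 24 h (adjusted p = 0.00237).

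Of 9 PKC substrates and scaffolds, ADD1, an actin-capping adducin, passed, with rises of 1.19 at 8 h and 1.28 at 24 h (adjusted p = 0.000928 at 24 h). Of 7 genes between PKC and NF-kappaB, CHUK passed the F test, without a called difference from 0 h (0.36 at 4 h, adjusted p = 0.303, and -0.33 at 48 h, adjusted p = 0.175). Of 10 genes for PKC maturation and dephosphorylation, 2 passed. PDPK1, the kinase that phosphorylates the PKC activation loop, rose by 1.04 at 8 h (adjusted p = 0.00778), and RICTOR, a subunit of the mTOR complex that phosphorylates PKC tails, rose by 1.10 at 24 h (adjusted p = 0.000333).

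**Figure D4:**
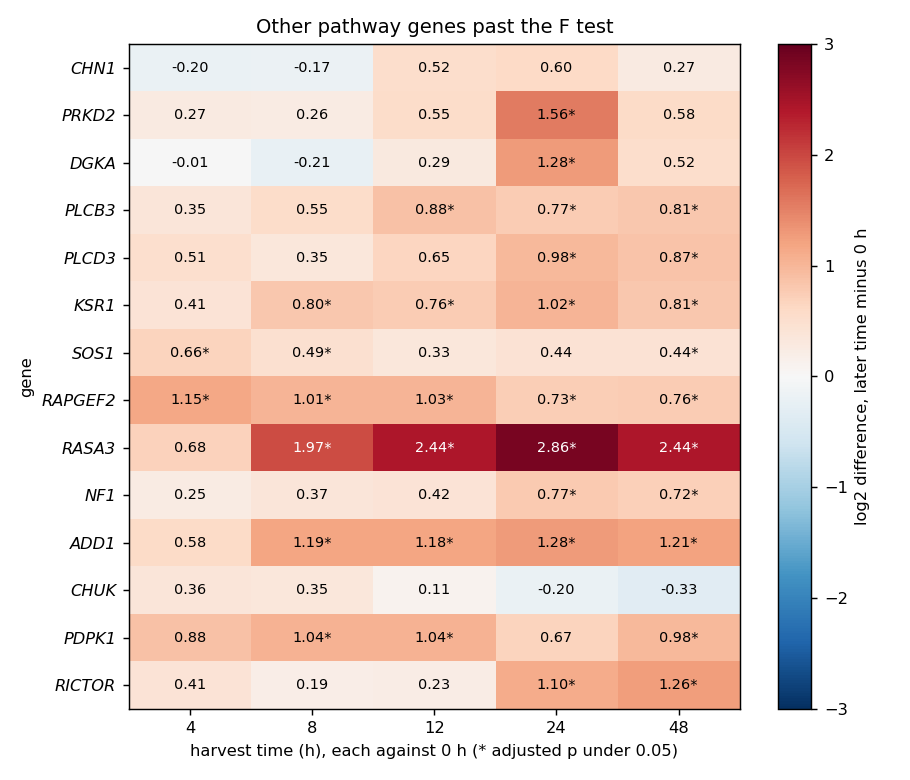
Log2 difference from 0 h (later time minus 0 h) at 4 to 48 h for the 14 pathway genes past the F test, with an asterisk where the adjusted p was under 0.05. RASA3 reaches 2.86 at 24 h, and CHN1 and CHUK have no asterisk at any time.

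The genes closest in profile were found for the 4 genes past the F test, by Pearson's r over the 18 arrays, as a description of arrays that share harvest times. They were CHI3L2 (0.96), BCAT1 (0.94) and DKC1 (0.92) for RASGRP3, and INTS10 (0.93), PTPN9 (0.92) and ALDH5A1 (0.91) for RASGRP1. For PRKCB they were SIGLEC17P (0.92), ATP2B4 (0.92) and PCID2 (0.90), and for PRKCH they were TAGLN3 (0.86), NTS (0.86) and BTN3A3 (0.85). Among the 10 genes themselves, r was 0.67 between RASGRP1 and RASGRP3, 0.72 between RASGRP2 and RASGRP3, 0.71 between PRKCB and PRKCH, and 0.77 between PRKCD and PRKCZ.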

How the data were processed

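The authors deposited log2 intensities from 18 Affymetrix arrays, 1 value per probe set; the log base was read from the range of the values. Per the labels' protocols, total RNA was column-purified and made into biotinylated cDNA. The sources used here do not state the software, background correction or normalization. Of 33297 probe sets the platform table names 1 gene for 19460, several for 1754 and 12083 were unnamed here; the highest-mean 1-gene probe set stood for each of 18417 genes.

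In R 4.3.3, limma 3.58.1 fitted 1 linear model with harvest time as its term over the 18 arrays together, with 12 residual and 5.58 prior degrees of freedom. Its F test covered the 5 later times against 0 h, and moderated two-sided tests covered each contrast, with Benjamini-Hochberg adjustment over all genes in each comparison. The code was checked on simulated data. Promoter windows came from RefSeq (GRCh38.p14), and all 10 genes matched by symbol. The 10 genes and the lists were chosen with earlier results of these data known. All 10 are named; in each pathway list the up to 2 genes with the smallest F test p are, and for each of the 10 past the F test the 3 genes of highest r. Alternatives were quantile normalization, median centring, a filter on dim genes, the mean of probe sets, 2-time fits, array weights, the interquartile range as a covariate, a replicate block and each array left out. The main fit did not pair the arrays by replicate number.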

Additional observations from a re-analysis of the deposited data

How the results depend on the processing

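Of 100 differences of the 10 genes, 14 were called, and 10 of these held under each of their 14 alternatives: RASGRP1 and RASGRP3 at 8, 12, 24 and 48 h against 0 h, PRKCB at 24 h and RASGRP3 at 48 h against 12 h. Not every alternative could move a difference. The mean of probe sets and the filter on dim genes left the levels of the 10 genes as they were. The replicate block left their differences as they were. These could change a call only through the adjusted p. Some of the 10 calls held narrowly. The highest adjusted p of an alternative was 0.0499 for RASGRP1 at 8 h and 0.0444 for RASGRP3 at 48 h against 12 h. The other 4 of the 14 lost their call under some: RASGRP2 at 8 h and 24 h, PRKCH at 24 h, and RASGRP3 at 8 h against 4 h. No called difference changed sign; 33 of the 86 that were not called did, and 11 gained a call under some alternative. The F test called 3 to 5 of the 10 genes with 1 array left out.

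With 1 array left out, the number called was 2 to 3 at 8 h, 3 to 5 at 24 h and 2 to 4 at 48 h against 0 h, 0 to 1 at 8 h against 4 h, 0 to 1 at 48 h against 24 h and 1 to 2 at 48 h against 12 h. With only the arrays of the 2 times compared it was 0 at 8 h against 4 h (1 in the fit of all 18 arrays) and 1 at 24 h against 12 h (0 in that of all 18). With array weights it was 1 at 12 h against 8 h and 3 at 24 h against 12 h (0 for both without weights over all 18 arrays). The cause of these changes was not tested. With the replicate number as a block the F test called 4 of the 10 genes, and no count of called genes among the 10 changed. With the mean of each time taken off, same-numbered arrays correlated above 0.1 in 20 of 45 pairs, with r from -0.24 to 0.60. Their median r was 0.08, against -0.06 for arrays of other numbers. Of the 18 arrays, 9 correlated best with their own number. Over all genes the F test called 3023, 5422 with array weights and 3218 with the block. At 8 h against 4 h 41 genes were called, 1039 with array weights and 0 in the fit of the 6 arrays. The weighted 8 h mean rests mostly on replicate 1, with a weight of 5.18. At 4 h against 0 h the count was 322, with 125 in the fit of the 6 arrays, 566 with array weights and 109 to 256 with 1 array left out. At 8 h against 0 h the count of 1230 became 575 in the 2-time fit and 2183 with array weights, and 759 to 1004 with 1 array left out. At 12 h against 0 h it was 1483, with 888 to 1229 with 1 array left out. At 24 h against 12 h it was 252 and 1099 with array weights, at 48 h against 24 h 74, with 10 in the fit of the 6 arrays and 206 with array weights, and at 12 h against 8 h 0 and 142 with array weights. With 1 array left out these ran from 0 to 43 at 8 h against 4 h, 105 to 335 at 24 h against 12 h and 35 to 258 at 48 h against 24 h, and 493 to 1039 at 48 h against 12 h, where 873 genes were called.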
